A study of Homo sapiens with 4 samples.

Results

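The DEAD and DEAH box RNA helicases are enzymes that use ATP to open RNA duplexes or to strip proteins from RNA. They were taken here as every gene symbol of the count table made of DDX or DHX, a number and at most 1 further letter. Of the 20913 genes in the table, 52 symbols matched, and 3 of them, DHX58, DDX58 and DDX60, were left out. The remaining 49 genes were 34 DDX and 15 DHX genes, and all 49 passed the filter on low counts. The rule used symbols only and no measured value.

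RNA-seq gave transcript levels for 4 libraries of T98G, an established human glioblastoma cell line whose cell type the labels give as astroblastoma. A pair of libraries came from cells with the genotype VECTOR, and a pair from cells with the genotype LGP2 overexpressed, with replicate numbers 2 and 3 in each group. LGP2 is the protein made by DHX58, a cytosolic helicase related to RIG-I and MDA5, and the names of the count columns mark its construct as flag-tagged. The labels give neither the promoter of the construct nor whether the cells were 1 clone or a pool, the growth text names 293T cells in place of T98G, and nothing shows that replicates were separate cultures, so the spread between libraries may be technical.

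Library totals lay between 56033379 and 63932198 counts. DHX58 had 377 and 571 counts in the vector libraries and 30509 and 34045 counts in the LGP2 overexpression libraries, so the labels of both groups fit the targeted gene. Of 8 glial and neural progenitor markers, 5 were in the table. Vimentin (VIM) lay between 2842 and 4027 CPM (counts scaled to a common library size), and the astrocyte filament gene GFAP between 0.346 and 0.693 CPM. All 5 mesenchymal glioma markers were in the table, and their summed level ran from 1966 to 2676 CPM. Of 5 microglia and macrophage markers, CD14 and CD68 were in the table. CD68 lay between 80.1 and 114 CPM. CD14 was at 25 and 16 counts in the vector libraries and at 0 counts in both LGP2 overexpression libraries. The neuron list had 4 markers, of which 3 were in the table. TUBB3 lay between 230 and 277 CPM, SNAP25 between 4.79 and 7.36 CPM and SYP between 1.58 and 3.34 CPM. Of the endothelial markers, PECAM1 alone was in the table, at 3.27 to 7.68 CPM.

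The family carries a conserved ATPase motif whose letters, aspartate-glutamate-alanine-aspartate or the same ending in histidine, give it its name. DEAD box proteins bind RNA without reading its sequence and pry short duplexes apart where they sit, while DEAH box proteins grip a single strand and pull on it from one end. Members work at nearly every step of an RNA's life, from transcription, splicing and nuclear export to ribosome assembly, translation and decay, and several also meet viral or other double-stranded RNA, the ligand of LGP2.

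The promoters of 5 members are shown because 4 of them had the smallest p-values in the comparison of groups and the fifth is 1 of 2 members with an interferon response motif. Each is the stretch of 150 bases before the RefSeq transcript start on GRCh38.p14, written 5′ to 3′ on the strand of the gene. The regions are chr5:55307695-55307844 on the minus strand for DHX29, chr2:38875935-38876084 on the minus strand for DHX57, chr5:134758629-134758778 on the plus strand for DDX46, chr10:68956020-68956169 on the plus strand for DDX21 and chr4:168480493-168480642 on the minus strand for DDX60L. Capitals mark matches on either strand to the ETS factor motif CCGGAAG, the CCAAT box CCAAT and the interferon response motif, GAAA repeated after a gap of 2 bases of any kind.
DHX29: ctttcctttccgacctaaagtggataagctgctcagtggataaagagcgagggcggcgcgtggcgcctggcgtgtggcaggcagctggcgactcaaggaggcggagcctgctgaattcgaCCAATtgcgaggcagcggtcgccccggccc
DHX57: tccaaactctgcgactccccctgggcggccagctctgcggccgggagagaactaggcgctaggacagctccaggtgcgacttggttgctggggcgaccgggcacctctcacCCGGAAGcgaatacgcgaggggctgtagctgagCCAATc
DDX46: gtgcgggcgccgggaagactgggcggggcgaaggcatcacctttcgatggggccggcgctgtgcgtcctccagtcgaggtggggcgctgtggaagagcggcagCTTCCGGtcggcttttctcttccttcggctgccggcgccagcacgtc
DDX21: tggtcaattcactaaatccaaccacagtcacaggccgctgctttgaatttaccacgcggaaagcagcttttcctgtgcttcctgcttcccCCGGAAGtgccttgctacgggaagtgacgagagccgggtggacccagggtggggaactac
DDX60L: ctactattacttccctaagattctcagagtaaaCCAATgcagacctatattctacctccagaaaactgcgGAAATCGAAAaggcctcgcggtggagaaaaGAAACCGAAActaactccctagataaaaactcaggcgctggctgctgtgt
DHX57, DDX46 and DDX21 each hold 1 ETS match, which in DDX46 lies on the opposite strand. DHX29 and DHX57 hold a CCAAT box, and DDX60L holds a CCAAT box and 2 interferon response matches.

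RefSeq promoters were found for 44 of the 49 members; DDX12P, DDX18, DDX49, DDX52 and DHX33 were not matched. In the 250 bases before the start, with both strands searched, CCGGAAG occurred in 16 of 44 members, or 36.4%, against 15.3% of the promoters of the tested genes and 8.82% of all 27305 promoters. The interferon response motif occurred in 2 members, DDX60L and DHX15, against 2.43% of the promoters of the tested genes. The SP1 motif GGGCGG occurred in 25 members, or 56.8%, against 65.95%. The TATA box letters TATAAA occurred in 2 members, DDX39B and DHX32, or 4.55% against 5.86%. Both matches lay on the opposite strand, 207 bases before the start in DDX39B and 157 in DHX32. The NRF1 motif, GCGCA and GCGC with any base between them, occurred in 4 members, or 9.09% against 10.1%, the CCAAT box in 19 members, or 43.2% against 35.2%, and the YY1 motif, AAGATGG followed by CGG, in 0 members against 0.589%. The median log2 fold change between groups was 0.14 over the 16 members with the ETS letters and 0.11 over the 28 without them. It was 0.15 over the 25 members with the SP1 letters and 0.030 over the 19 without them, and 0.34 over the 2 members with the interferon response motif and 0.11 over the other 42. For the CCAAT box it was 0.14 over the 19 members with it and 0.10 over the 25 without it. For the NRF1 motif it was 0.067 over 4 and 0.13 over 40, and for the TATAAA letters 0.010 over 2 and 0.13 over 42. None of these differences was tested.

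Levels of different genes were set side by side as CPM per kb of exonic length, the mean of the 4 libraries, with lengths from GENCODE 29. DDX5, a coregulator of transcription and splicing, stood at 95.9 CPM per kb, more than any other member. DHX9, which opens long double-stranded RNA such as paired Alu repeats, followed at 44.9 CPM per kb. Next came DDX39B and DDX39A, partners of the TREX export complex, at 36.0 and 30.2 CPM per kb. DDX1 of the tRNA ligase complex stood at 28.5 CPM per kb, and DDX21, a nucleolar helicase of ribosomal RNA synthesis, at 28.1 CPM per kb. The libraries of DDX5 did not reach down to those of any other member, whereas those of DDX1, DDX21 and DDX17 overlapped and these neighbours cannot be ordered. At the other end were DHX57 at 1.77, DDX60L at 0.426 and DDX3Y at 0.214 CPM per kb. DDX4, DDX25, DDX43 and DDX53, the germline members of the family, were not among the matching symbols of the count table, so they were not analysed here.

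**Figure D1:**
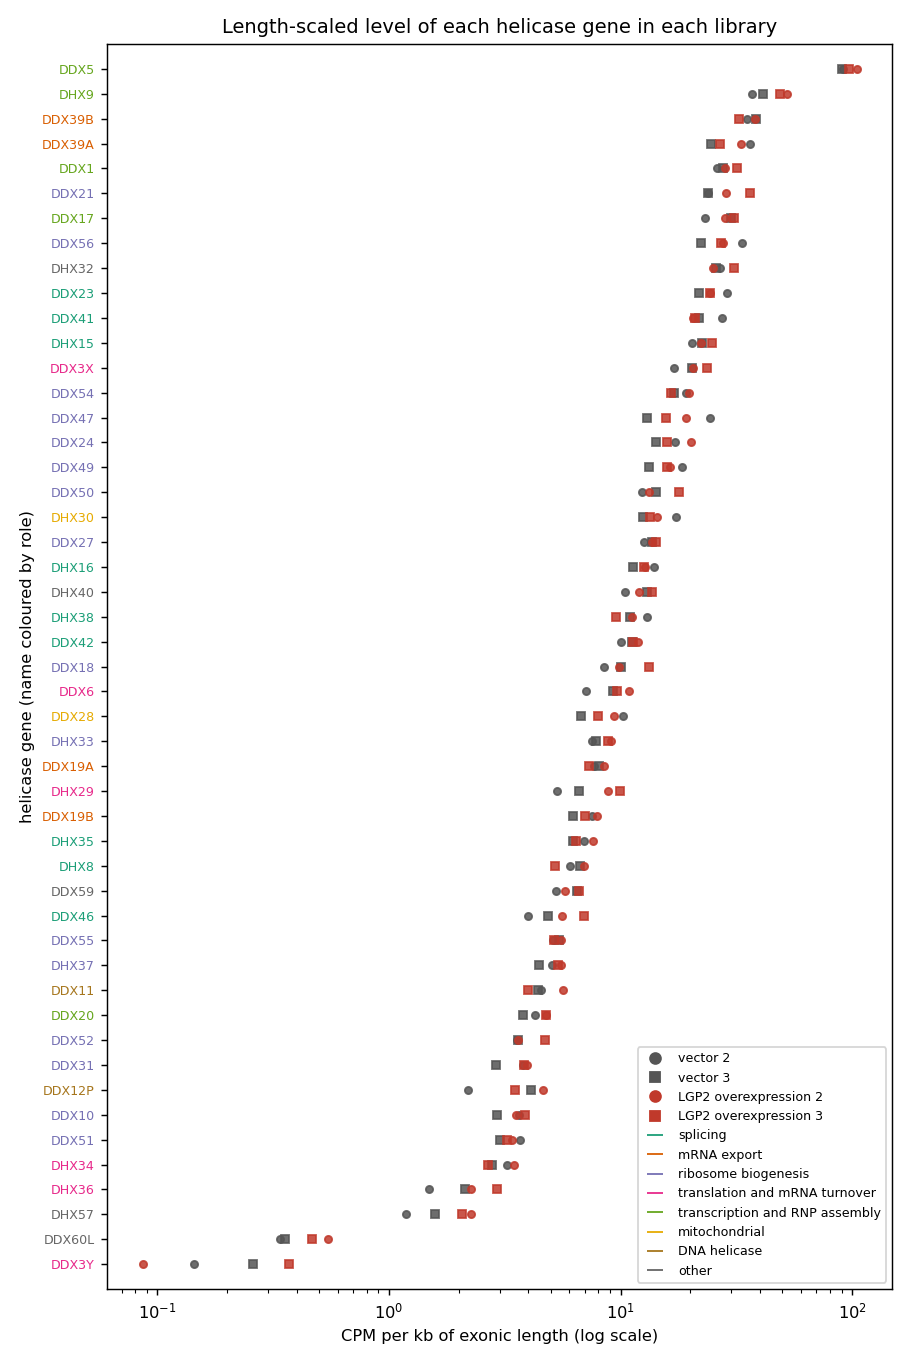
Level of each of the 49 helicase genes in each library, as CPM per kb of exonic length on a log scale, with vector libraries in grey, LGP2 overexpression libraries in red, replicate 2 as circles, replicate 3 as squares and gene names coloured by role. DDX5 stands apart at the top with a mean of 95.9 CPM per kb, and DDX60L and DDX3Y lie lowest at 0.426 and 0.214 CPM per kb.

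The comparison of LGP2 overexpression with vector asked how helicase transcripts stand when 1 member of their wider family is raised. None of the 49 members passed by edgeR's quasi-likelihood test at a Benjamini-Hochberg adjusted p under 0.05, against 0.0168% of all tested genes called higher and 0% called lower. At an unadjusted p under 0.05, 6 members were higher, or 12.2%, against 3.00% of all tested genes, and 0 were lower, against 1.46%. DESeq2 called 0 members, against 0.0728% of all tested genes higher and 0.0504% lower, and limma-voom 0, against 0.0224% and 0.0112%. At an unadjusted p under 0.05 both gave the same 6 members higher, against 3.21% of all tested genes by DESeq2 and 3.54% by limma-voom, and 0 lower, against 1.46% and 1.61%. The median log2 fold change was 0.13 over the members and -0.0080 over all tested genes, and 39 of the members, or 79.6%, lay above 0, against 48.7% of all tested genes. With counts scaled to library totals alone the median was 0.17, with 42 members above 0 and 5 higher at an unadjusted p under 0.05, while the median of all tested genes was 0.038.

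Since 48 of the members had a mean of at least 5 CPM, the tested genes at that level are a closer background. Of these, 0.0278% were called higher and 0% lower, 3.72% were higher and 1.34% lower at an unadjusted p under 0.05, and 47.1% lay above 0. Both LGP2 overexpression libraries lay above both vector libraries for 16.3% of them and below both for 17.2%, and the 95% interval left out a 2-fold change either way for 94.2%, against 43 of the 48 members at that level.

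Both LGP2 overexpression libraries lay above both vector libraries for 18 members, or 36.7%, against 16.7% of all tested genes. They lay below both for 1 member, DDX41, or 2.04%, against 16.5%. Together the members took 0.419% and 0.442% of all counts in vector replicates 2 and 3 and 0.483% and 0.490% in LGP2 overexpression replicates 2 and 3, and the groups did not overlap in this share. The differences were small: the 95% interval left out both a 2-fold rise and a 2-fold fall for 43 of the 49 members, or 87.8%, against 61.1% of all tested genes. The members whose interval reached a 2-fold change were DHX29, DHX57, DHX36, DDX60L, DDX12P and DDX3Y. Only for DDX3Y did it reach a 2-fold fall.

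**Figure D2:**
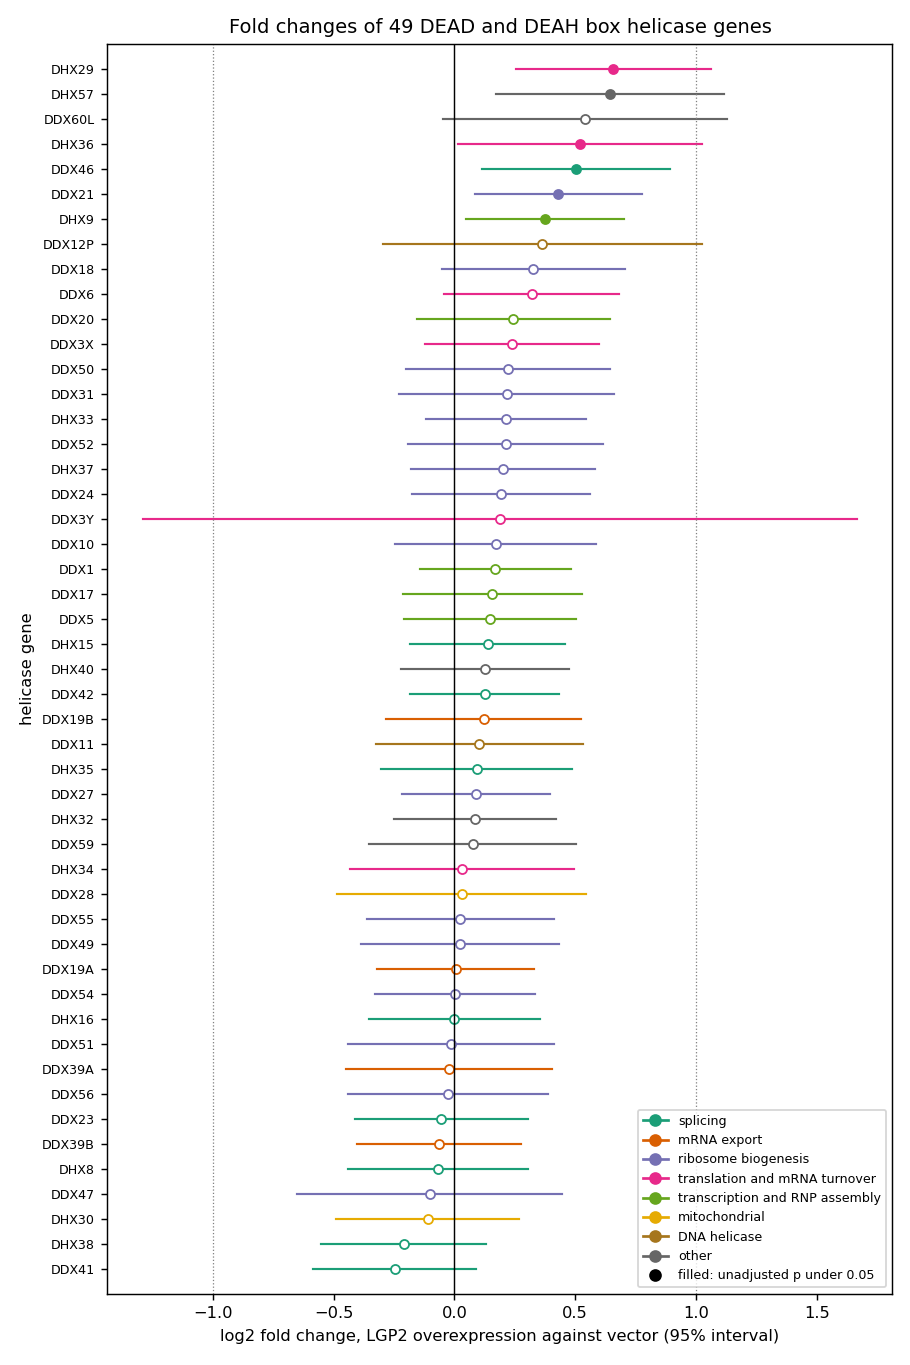
Log2 fold change of each of the 49 helicase genes between LGP2 overexpression and vector, with its 95% interval from edgeR, coloured by role; filled points had an unadjusted p under 0.05 and dotted lines mark 2-fold changes. The 6 filled points, from DHX9 at 0.37 to DHX29 at 0.66, all lie to the right of 0, and no member passed after adjustment.

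Helicases of translation and mRNA turnover had a median log2 fold change of 0.28, the highest of the 8 roles. Of these, 6 of 6 were positive, against 48.7% of all tested genes. All but DHX34 were under 45% GC, where 69.1% of tested genes lay above 0. DDX3Y averaged 1.23 CPM and was at -0.036 by limma-voom. With GC and length offsets, described below, DHX29, DHX36, DDX6, DHX34, DDX3X and DDX3Y were at 0.49, 0.29, 0.11, 0.094, 0.015 and 0.011. The DNA helicase members DDX12P and DDX11 stood at 0.43 and 0.12 there, so the rank did not hold in that fit. DHX29, which joins the small ribosomal subunit and helps it scan structured leaders, was at 25.1 and 31.4 CPM in vector replicates 2 and 3 and at 41.8 and 47.3 CPM in LGP2 overexpression replicates 2 and 3. The groups did not overlap, and its log2 fold change of 0.66 (SE 0.18, 1.58-fold, 95% interval 1.19 to 2.09) had an unadjusted p = 0.00455 and an adjusted p = 0.963 by edgeR. DHX29 is a protein-coding gene of the minus strand and spans 55256245 to 55307722 of chromosome 5 (GRCh38, from GENCODE 29).

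DHX36, which unwinds G-quadruplexes, was at 15.7 and 22.5 CPM in vector and at 23.9 and 30.9 CPM with LGP2, so the upper vector library came close to the lower LGP2 library. Its log2 fold change was 0.52 (SE 0.23, unadjusted p = 0.0452 and adjusted p = 0.998 by edgeR). DDX6, the repressor that couples decapping to translational silencing, was at 81.3 and 106 CPM in vector and at 124 and 109.9 CPM with LGP2 (log2 fold change 0.32, SE 0.16). DDX3X, which helps ribosomes load on structured leaders, was at 270.6 and 323 CPM in vector and at 326 and 375 CPM with LGP2. For DDX6 and DDX3X the groups did not overlap, but the gap between them was narrower than the spread within the vector pair. DHX34, a factor of nonsense-mediated decay, had a log2 fold change of 0.031 (SE 0.21).

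Of 16 ribosome biogenesis helicases, 13 were positive, against 48.7% of all tested genes, and the median log2 fold change was 0.18. DDX21 was at 120.3 and 120.0 CPM in the vector libraries and at 142 and 181 CPM with LGP2. Its vector libraries were nearly equal and both LGP2 libraries lay above them, with a log2 fold change of 0.43 (SE 0.16, unadjusted p = 0.0195 and adjusted p = 0.998 by edgeR). DDX50, the nucleolar relative of DDX21 that lies next to it on chromosome 10, was at 33.4 and 38.4 CPM in vector and at 35.7 and 48.1 CPM with LGP2, and its groups overlapped. DDX24, the member of this role with the highest CPM, was at 148 and 123 CPM in vector and at 173 and 136 CPM with LGP2, also with overlapping groups. The members of this role below 0 were DDX47, DDX56 and DDX51, at -0.10, -0.027 and -0.014, of which DDX56 and DDX51 lay above 0 with library totals alone.

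DDX47 showed how far libraries of 1 group could lie apart. It was at 123 and 65.5 CPM in vector replicates 2 and 3, on either side of 96.3 and 79.3 CPM with LGP2. DDX56 was likewise at 136 and 90.5 CPM in vector, on either side of 113 and 109.9 CPM with LGP2. In GENCODE 29 DDX47 shares exon bases with APOLD1 on the same strand, so its counts are uncertain.

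Splicing helicases did not lean one way. Among 9 members, 5 had positive values, against 48.7% of all tested genes, and the median log2 fold change was 8.5e-05. DDX46, the human counterpart of yeast Prp5, which remodels the U2 particle at the branch site, was at 36.8 and 44.9 CPM in vector and at 51.7 and 64.2 CPM with LGP2. Its groups did not overlap (log2 fold change 0.50, SE 0.18, unadjusted p = 0.0161 and adjusted p = 0.998 by edgeR). DDX41 was at 124 and 99.4 CPM in vector and at 93.6 and 94.8 CPM with LGP2 (log2 fold change -0.25, SE 0.15, unadjusted p = 0.132 by edgeR). It was the 1 helicase with both LGP2 libraries below both vector libraries, though vector replicate 3 lay close to them.

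DHX38, the counterpart of Prp16, which acts before the second step of splicing, was at 82.3 and 69.8 CPM in vector and at 70.9 and 60.5 CPM with LGP2. DHX15, which takes spent spliceosomes apart, was at 166.1 and 184 CPM in vector and at 182 and 203 CPM with LGP2. DHX8, which releases the spliced mRNA, had a log2 fold change of -0.069 (SE 0.17), and DDX23, which helps exchange U1 for U6 at the splice donor, -0.054 (SE 0.16). In all of these the groups overlapped.

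All 5 helicases of transcription and RNP assembly had positive values, against 48.7% of all tested genes. Each of them was under 45% GC, where 69.1% of tested genes lay above 0. DDX5 and DDX20 were below 0 with GC and length offsets. The median log2 fold change was 0.17. For 4 of these helicases both LGP2 libraries lay above both vector libraries, against 16.7% of all tested genes. DHX9 was at 209 and 233 CPM in vector and at 296 and 277 CPM with LGP2, with a log2 fold change of 0.37 (SE 0.15, 1.30-fold, unadjusted p = 0.0289 and adjusted p = 0.998 by edgeR). DHX9 is a protein-coding gene of the plus strand and spans 182839369 to 182887751 of chromosome 1. DDX5 was at 677 and 668 CPM in vector and at 773 and 715 CPM with LGP2 (log2 fold change 0.15, SE 0.16). Its relative DDX17 was at 231 and 299 CPM in vector and at 282 and 309 CPM with LGP2, and its groups overlapped. DDX1 had a log2 fold change of 0.17 (SE 0.14), and DDX20, the helicase of the SMN complex, 0.24 (SE 0.18).

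The 4 mRNA export helicases gave a median log2 fold change of -0.0083, and the groups overlapped for each. Among all tested genes, both LGP2 libraries lay above both vector libraries for 16.7% and below both for 16.5%. DDX39B was at 245 and 269.7 CPM in vector and at 266 and 227 CPM with LGP2. DDX39A was at 139 and 94.5 CPM in vector and at 127 and 103 CPM with LGP2. DDX19A and DDX19B, which release export factors at the nuclear pore, stood at log2 fold changes of 0.0061 (SE 0.15) for the first and 0.12 (SE 0.18) for the second. Of the 2 mitochondrial members, DHX30, a factor of mitochondrial ribosome assembly, was at -0.11 (SE 0.17) and DDX28 at 0.030 (SE 0.23).

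The remaining members were 5 genes with other or little known roles and 2 of the DNA helicase branch. DHX57 was at 9.41 and 12.6 CPM in vector and at 18.0 and 16.5 CPM with LGP2. Its groups did not overlap, and its log2 fold change was 0.64 (SE 0.21, 1.56-fold, unadjusted p = 0.0123 and adjusted p = 0.998 by edgeR). DDX60L, a relative of the interferon-induced DDX60 and its neighbour on chromosome 4, was at 4.11 and 4.33 CPM in vector and at 6.61 and 5.67 CPM with LGP2. Its groups did not overlap either (log2 fold change 0.54, SE 0.26, unadjusted p = 0.0675 by edgeR). DHX32 was at 0.085 (SE 0.15), DHX40 at 0.13 (SE 0.16) and DDX59 at 0.075 (SE 0.19), all with overlapping groups.

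**Figure D3:**
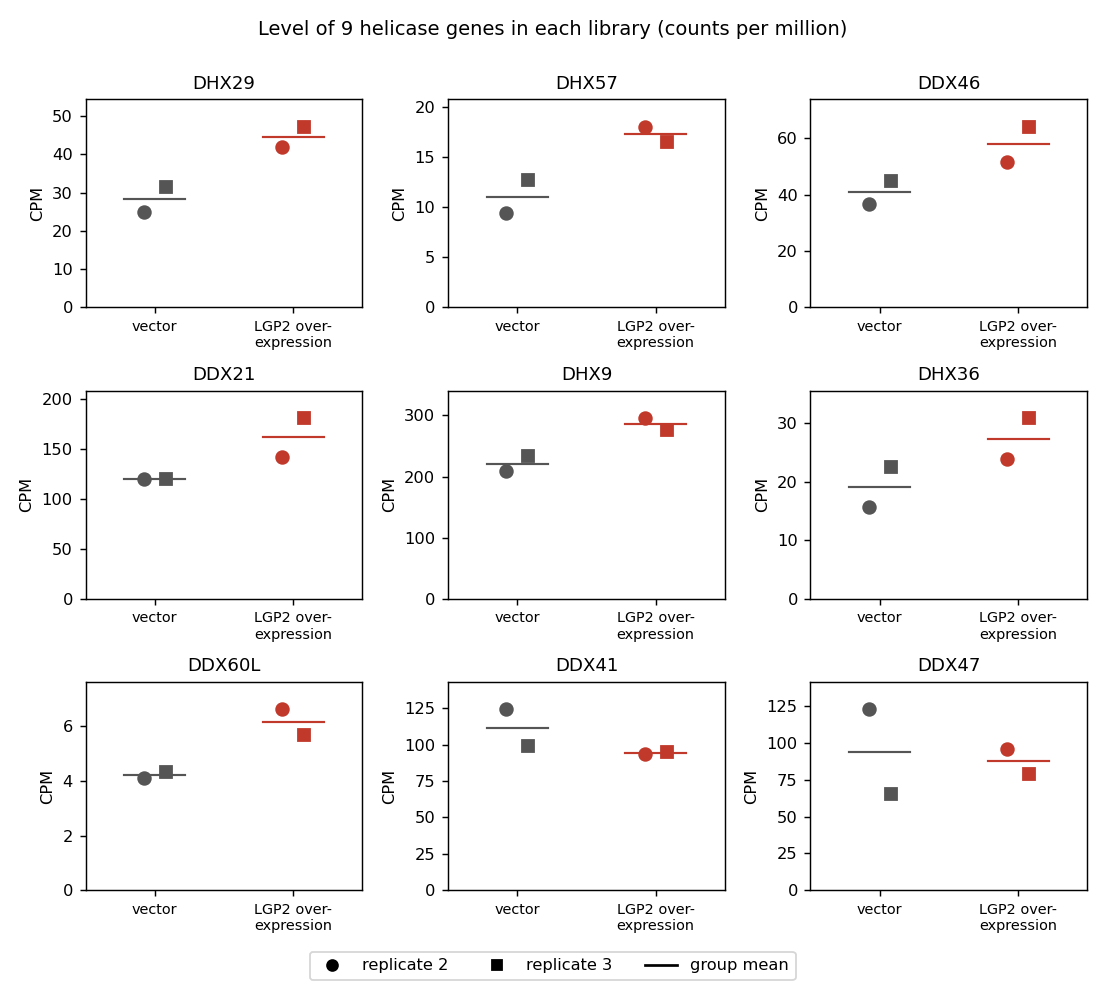
Level in CPM of 9 helicase genes in each library, with vector in grey, LGP2 overexpression in red, replicate 2 as circles, replicate 3 as squares and lines at the group means. The 6 genes with an unadjusted p under 0.05 (DHX29 to DHX36) and DDX60L have both red points above both grey points, DDX41 has both below, and DDX47 has grey points at 123 and 65.5 CPM on either side of the red ones.

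Related members were compared for sequence that reads could not tell apart. DDX11, a DNA helicase of sister chromatid cohesion, was at 37.9 and 36.9 CPM in vector and at 47.0 and 33.4 CPM with LGP2, and its pseudogene copy DDX12P at 6.43 and 12.1 CPM and at 13.6 and 10.3 CPM. Of all stretches of 50 bases in the annotated DDX12P transcript, 43.8% also occur in DDX11 transcripts, so reads of these genes may have been split between them. DDX19A and DDX19B share 708 such stretches, 8.24% of those of DDX19A and 14.7% of those of DDX19B. DDX3X and its Y-linked copy DDX3Y share 20, or 0.342% of those of DDX3Y, whose vector libraries held 50 and 90 counts and whose LGP2 libraries held 28 and 138. DDX5 with DDX17, DDX21 with DDX50 and DDX39A with DDX39B share 0.

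Overlapping annotation touched many members. In GENCODE 29, 8 members share exon bases with another gene on the same strand and 23 with a gene on the opposite strand, while 22 share none. Among the 6 members with an unadjusted p under 0.05, DDX21, DHX9 and DHX36 share none. DDX46 shares bases with C5orf24 on the same strand, and DHX29 and DHX57 share short stretches with opposite-strand genes.

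Fold changes went with the GC content of transcripts, among the members and in the whole table. Across the 49 members, the log2 fold change and the GC content of the longest transcript had a Pearson r of -0.56 and a Spearman rho of -0.62. Across the 17479 tested genes with a known GC content they were -0.18 and -0.34; these are descriptions across genes that share the same 4 libraries. The ratio of vector replicate 3 to vector replicate 2, which differ in no labelled condition, also went with GC across the members, with r of -0.48. The ratio of LGP2 overexpression replicate 3 to replicate 2 did so with r of -0.52.

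Of the 23 members under 45% GC, 22 had positive values, the median log2 fold change was 0.22, and all 6 members at an unadjusted p under 0.05 were among them. Of the 6280 tested genes under 45% GC, 69.1% lay above 0, with a median of 0.14, and 7.36% were higher at an unadjusted p under 0.05, against 26.1% of these members. The 12 members between 45 and 55% GC had a median of 0.091, against -0.033 for the tested genes of that class. The 14 members over 55% GC had a median of 0.0015, against -0.11. With offsets for GC content and transcript length in the fit, chosen after the data were seen, the members' median was 0.092 against -0.0068 for all tested genes. These offsets took the place of library totals and TMM factors, so libraries were not scaled for depth in this fit. The LGP2 overexpression libraries held 56033379 and 63300173 counts, and that gap entered the spread. The p-values and shares of this fit therefore cannot be set beside those of the fit without offsets. DHX29 and DHX57 then had log2 fold changes of 0.49 and 0.52 (unadjusted p = 0.0174 and 0.0218 by edgeR), and they were the 2 members higher at an unadjusted p under 0.05, against 1.36% of all tested genes, while 0 members were lower, against 1.65%. DDX46, DDX21, DHX9 and DHX36 were at 0.26, 0.27, 0.29 and 0.29.

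**Figure D4:**
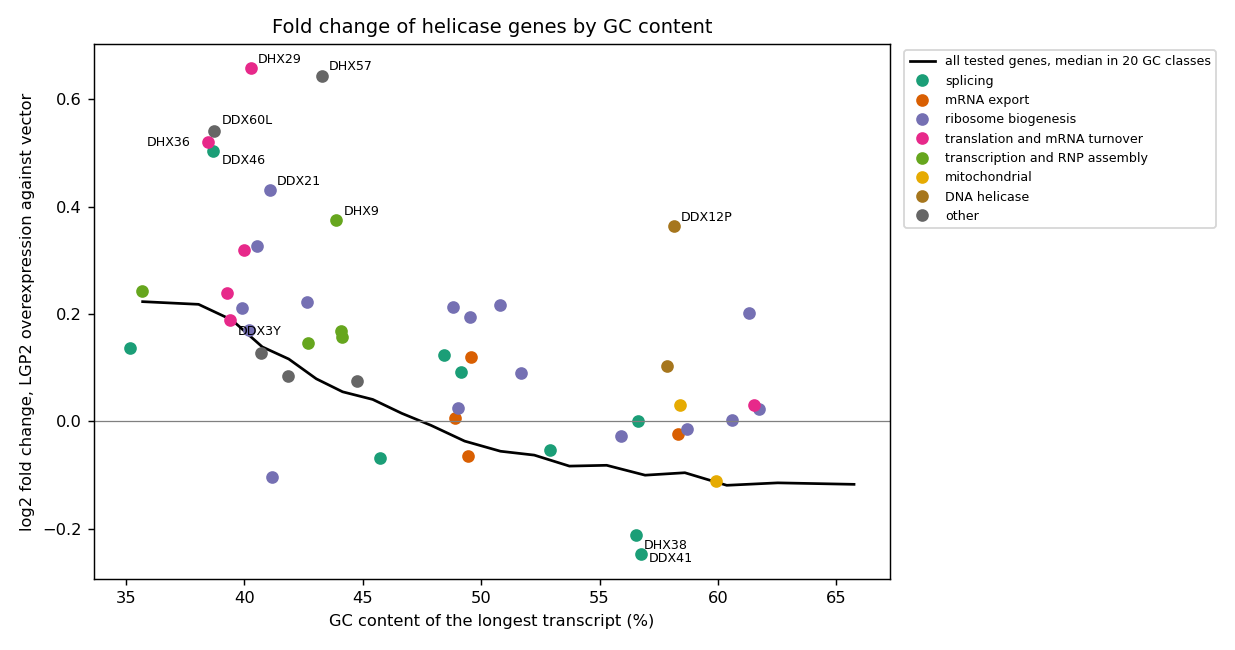
Log2 fold change of each helicase gene against the GC content of its longest transcript, coloured by role, with the black line giving the median of all tested genes in 20 GC classes. The black line falls from left to right, DHX29, DHX57, DDX60L, DHX36, DDX46, DDX21 and DHX9 lie above it at low GC, and DDX41 and DHX38 lie below it at high GC.

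Single libraries moved these counts. Without vector replicate 3, DHX29 passed at a log2 fold change of 0.83 (adjusted p = 0.0112 by edgeR) and DDX46 at 0.65 (adjusted p = 0.0340 by edgeR), while 2.31% of all tested genes passed. In that fit 11 members were higher at an unadjusted p under 0.05, against 8.58% of all tested genes, and 4 were lower, against 5.23%. Without LGP2 overexpression replicate 3, 0 members were at an unadjusted p under 0.05, against 0.602% of all tested genes higher and 1.73% lower. Without vector replicate 2 the higher members were DHX29, DDX46, DDX21, DDX24 and DDX47, against 3.20% of all tested genes. Without LGP2 overexpression replicate 2 they were DHX29, DDX46, DDX21 and DDX18, against 2.25%. With 1 library left out, fold changes on the log2 scale lay from 0.51 to 0.83 for DHX29, from 0.45 to 0.87 for DHX57, from 0.34 to 0.65 for DDX46, from 0.25 to 0.59 for DDX21, from 0.30 to 0.45 for DHX9 and from 0.28 to 0.80 for DHX36. Each such fit keeps a single library in 1 group and takes its spread from the other pair, moderated by that of all tested genes.

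Head-to-head neighbours were listed after the data were seen, as tested genes on the opposite strand whose start lies within 1000 bases of the start of a member. There were 13 members with such a neighbour, and for 10 it was protein coding. The start of DHX29 lies 38 bases from that of MTREX, which encodes the helicase of the nuclear exosome. MTREX was at 43.4 and 47.1 CPM in vector and at 56.4 and 76.6 CPM with LGP2, with a log2 fold change of 0.56 (SE 0.17, unadjusted p = 0.00922 and adjusted p = 0.998 by edgeR). Both genes of this pair thus had LGP2 libraries above the vector libraries. The start of DHX57 lies 28 bases from that of MORN2, which was at -0.073 against 0.64 for DHX57. Over the 10 protein-coding neighbours 6 were positive, and the median log2 fold change was 0.065.

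RNA helicases outside the DDX and DHX names were set beside the members. Of 19 tested genes of this kind 9 were positive, the median log2 fold change was -0.0020, and 4 were higher at an unadjusted p under 0.05, against 3.00% of all tested genes, and 0 lower, against 1.46%. Those named by rule were MTREX, at the values above, and ASCC3, a helicase that takes collided ribosomes apart, at 32.4 and 40.4 CPM in vector and at 47.0 and 59.6 CPM with LGP2 (log2 fold change 0.55, SE 0.18). The difference between this list and the members was not tested.

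Partners of single helicases lay around 0. Of 26 tested cofactors with G-patch or MIF4G domains or acting on eIF4A, 15 lay above 0, with a median of 0.027, and CWC22, a splicing factor that holds eIF4A3, was at 0.76 (SE 0.23, unadjusted p = 0.00692 by edgeR). Of 16 decay and repression partners of DDX6, 7 lay above 0, with a median of -0.015, and the exonuclease XRN1 was at 0.50 (SE 0.21, unadjusted p = 0.0371 by edgeR). Of 11 TREX partners of DDX39B, 5 lay above 0, with a median of -0.0025, and ZC3H11A was at 0.38 (SE 0.16, unadjusted p = 0.0362 by edgeR). Of 9 SMN complex partners of DDX20, 4 lay above 0, with a median of -0.046, and of 5 tested tRNA ligase partners of DDX1, 3 lay above 0, with a median of 0.096. No gene of these lists passed after adjustment, against 0.0168% of all tested genes called higher and 0% called lower. CWC22, XRN1 and ZC3H11A were those higher at an unadjusted p under 0.05, against 3.00% of all tested genes, and 0 were lower, against 1.46%.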

How the data were processed

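Raw read counts per gene were deposited by the authors in 1 table with 4 columns, 1 per library. The submitters' processing notes name the build mm10, although the symbols are human; the aligner, counter, annotation and strand setting were not given in the sources used here, so reads of overlapping opposite-strand genes may be mixed. Columns were matched to libraries by title.

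The whole table was fitted in edgeR 4.0.16 (R 4.3.3) by quasi-likelihood, two-sided, with TMM scaling and filterByExpr, without covariates; 17863 of 20913 genes were tested and p-values adjusted over all of them. CPM use TMM-scaled totals. Each SE comes from the quasi-likelihood test, with 2 libraries per group and a spread moderated by that of all tested genes. DESeq2 1.42.0 and limma-voom (limma 3.58.1) were alternatives. TMM factors ran from 0.951 to 1.03. Positions, lengths and GC come from GENCODE 29; promoters from RefSeq.

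Members and lists were chosen with earlier results of these data known. Named were the 6 members with the highest level per kb, the 8 highest and 8 lowest fold changes among members averaging 5 CPM or more, those at an unadjusted p under 0.05, the highest of each role, the pairs of related members and, from each partner list, up to 2 genes per direction at an unadjusted p under 0.05. Other genes named were chosen after their values were seen.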

Additional observations from a re-analysis of the deposited data

How the results depend on the processing

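In no alternative with all 4 libraries did a member pass. The members' median log2 fold change moved to 0.17 when counts were scaled to library totals alone, where the median of all tested genes was 0.038, and to 0.092 with GC and length offsets, where 2 members were higher at an unadjusted p under 0.05, against 1.36% of all tested genes. The fit with GC and length offsets did not scale libraries for depth, so its p-values cannot be set beside those of the other fits. With 1 library left out, the median ran from 0.11 to 0.16, the members called from 0 to 2, those higher at an unadjusted p under 0.05 from 0 to 11, against 0.602% to 8.58% of all tested genes, and those lower from 0 to 4, against 1.61% to 5.23%. With the replicate number as a block, 0 members passed and the median was 0.13. In that fit 7 members were higher at an unadjusted p under 0.05, against 4.46% of all tested genes. Deviations of libraries with the same number had a correlation of 0.031. The labels do not say that the numbers pair libraries, so the numbers were not taken as pairs. The log2 fold change changed sign for 11 of the 49 members with GC and length offsets, for 3 with library totals alone, for 2 with the block and for 25 in at least 1 fit with a library left out; the reported values of these members lay between -0.11 and 0.36. With GC and length offsets they were DDX10 at -0.062, DDX20 at -0.023, DDX51 at 0.051, DDX52 at -0.016, DHX40 at -0.042, DDX19A at -0.011, DDX39A at 0.065, DDX5 at -0.0028, DDX56 at 0.063, DHX15 at -0.15 and DHX32 at -0.038. With library totals alone DDX39A was at 0.031, DDX51 at 0.037 and DDX56 at 0.029. By limma-voom, among the 29 members named by rule, DDX3Y was at -0.036 and DDX56 at 0.0030, and with the block DDX3Y was at -0.072 and DDX56 at 0.0029. With 1 library left out the ranges were -0.25 to 0.37 for DDX28, -0.15 to 0.14 for DDX51, -0.065 to 0.23 for DDX59, -0.17 to 0.21 for DHX34, -0.016 to 0.29 for DHX40, -0.17 to 0.33 for DDX11, -0.021 to 0.89 for DDX12P, -0.017 to 0.35 for DDX17, -0.11 to 0.11 for DDX19A, -0.012 to 0.26 for DDX19B, -0.24 to 0.16 for DDX23, -0.28 to 0.28 for DDX39A, -0.18 to 0.045 for DDX39B, -1.21 to 0.88 for DDX3Y, -0.49 to 0.42 for DDX47, -0.0077 to 0.42 for DDX50, -0.29 to 0.30 for DDX56, -0.33 to 0.14 for DHX30, -0.078 to 0.23 for DHX32 and -0.29 to 0.12 for DHX8; DDX49, DDX54, DDX55, DHX16 and DHX35 also changed sign. The cause was not tested. For 24 of the 49 members every such fit kept the sign.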
